A study of Homo sapiens with 18 samples.

Results

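MIA PaCa-2 is an established human pancreatic carcinoma cell line, and its response to a short hairpin RNA (shRNA) against OFD1 was read across all genes and functions in 6 RNA-seq libraries of the 18 in the series. The 3 knockdown libraries are labelled shOFD1 and were taken 72 h after doxycycline, and the 3 control libraries are labelled shControl, with the wild-type genotype and no treatment. All cells grew in DMEM with fetal bovine serum. By the study's methods the hairpin is carried on a lentivirus and is switched on by doxycycline, so doxycycline was given to every knockdown library and, by the labels, to no control library, and the effects of the drug and of the hairpin cannot be told apart here. The methods instead describe cells with the OFD1 hairpin given DMSO or doxycycline, which differs from the labels, so whether the controls carried a control hairpin or the uninduced OFD1 hairpin, and whether they had DMSO, was not settled. The series text places controls at day 0 and knockdowns at day 3, so an effect of the day cannot be told apart from those of the drug and the hairpin either. The hairpin used was not given in the sources used here. No label says that libraries of a group came from separate cultures, so p-values measure the spread between these libraries, which may be technical. The members were chosen as the 6 columns of this line, and 10758 genes with a mean of at least 1 FPKM (fragments scaled to transcript length and library size) over them were tested, of 26668 genes in the table.

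OFD1 is a protein of centrioles and of the centriolar satellites, the granules around the centrosome that supply proteins to the primary cilium, and loss of OFD1 is the cause of oral-facial-digital syndrome type 1. The DREAM complex, built from the MuvB core, a p107 or p130 pocket protein and E2F4, represses genes of DNA replication through E2F sites and genes of mitosis through cell cycle homology regions in quiescent cells. The integrated stress response is the pathway in which kinases that sense amino acid shortage, misfolded protein, viral RNA or haem shortage phosphorylate eIF2α, which lowers general translation and favours that of ATF4, a factor that switches on amino acid supply genes.

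The libraries held 37995561 to 39797537 reads on genes, and 1 of them stood apart. Control replicate 2 differed from control replicates 1 and 3 by a chi-square of 129.7 and 132 per degree of freedom over genes, against 3.05 between the latter and 3.23 to 3.53 among the knockdown libraries. Its level relative to the other 2 controls moved with transcript GC content, from a median of -0.73 on the log2 scale in the eighth of genes with a median GC content of 38.0% to 0.65 in the eighth with 64.1%. List counts and medians, and the main gene changes, are therefore given with all 6 libraries and without control replicate 2. The other gene changes are those with all 6 libraries. Of 367 genes open to naming, 361 kept their direction and their side of the adjusted p without that control. Most were open to naming only if both fits gave the same call, so that count is no check of stability. The line was checked against its markers. The epithelial keratins KRT8, KRT18 and KRT19 were expressed, while EPCAM and CDH1 stayed below 0.10 FPKM in every library. Of the mesenchymal-like markers, vimentin (VIM) and ZEB1 were expressed, CDH2 was at 0 and FN1 was at most 0.0541 FPKM. CDKN2A and MTAP, which lie in a deletion known in this line, were listed at 0 throughout. Of 5 leukocyte markers, 3 were above 0 in a library. Their summed level was 2.46 to 4.63 FPKM in controls and 5.92 to 6.27 FPKM in knockdowns, almost all of it PTPRC, while CD3E was at 0. The fibroblast markers summed to 6.18 to 6.86 FPKM and 29.7 to 30.8 FPKM, almost all COL3A1, with COL1A1 at most 0.114 FPKM and DCN at most 0.00374 FPKM. The 4 endothelial markers summed to at most 0.219 FPKM.

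**Figure D1:**
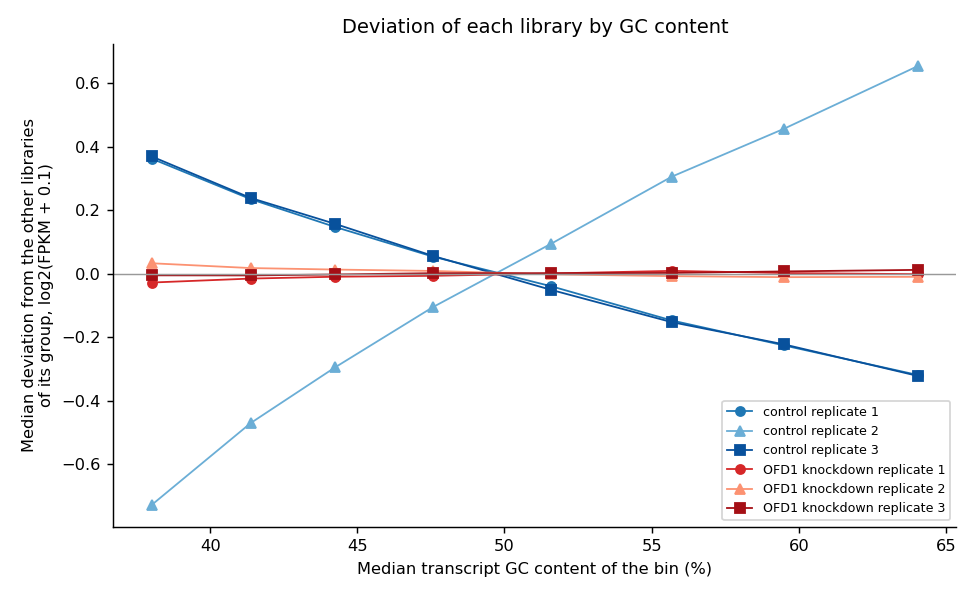
Median deviation of each MIA PaCa-2 library from the other 2 libraries of its group on the log2(FPKM + 0.1) scale (vertical) over 8 bins of genes ordered by transcript GC content (horizontal, median of the bin in %). Control replicate 2 climbs from -0.73 to 0.65, control replicates 1 and 3 mirror it because each is set against it, and the 3 knockdown libraries stay near 0.

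OFD1 itself fell. It was at 3.09, 2.27 and 3.20 FPKM in the control libraries and 1.76, 1.74 and 1.97 FPKM in the knockdown libraries, on 615 to 1164 reads. No knockdown library reached the lowest control, which was control replicate 2, and the groups did not overlap. The log2 fold change on the scale of log2(FPKM + 0.1), used for every change below, was -0.61 (SE 0.16, limma adjusted p = 0.0232), and -0.76 without control replicate 2 (limma adjusted p = 8.76e-05). The fall was short of 2-fold and was not large among all genes, with 1367 of 10758 genes at or below it. With each of the other 5 libraries left out in turn, which keeps control replicate 2, the limma adjusted p was between 0.0604 and 0.0896, and an exact two-sided permutation test of 3 against 3 gave p = 0.1, the smallest it can give. The gene lies on chromosome X at 13734745-13769353 on the forward strand of GRCh38 (GENCODE release 29).

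The change was broad. At a limma adjusted p below 0.05, 2338 of 10758 genes were lower (21.7%) and 2012 were higher (18.7%) after knockdown. With a fold change above 2 or below 0.5 as well, 396 genes were lower (3.68%) and 438 were higher (4.07%). Without control replicate 2 the counts were 417 (3.88%) and 434 (4.03%), of which 311 lower and 356 higher genes were shared with the fit of all 6 libraries. The counts at the adjusted p alone grew to 4302 (40.0%) lower and 3780 (35.1%) higher without that library, and were 1317 to 1348 lower and 1126 to 1141 higher when a knockdown library was left out instead. The 2 groups of libraries did not overlap for 6375 genes (59.3%), and for none of the 834 genes past the 2-fold threshold did they overlap.

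**Figure D2:**
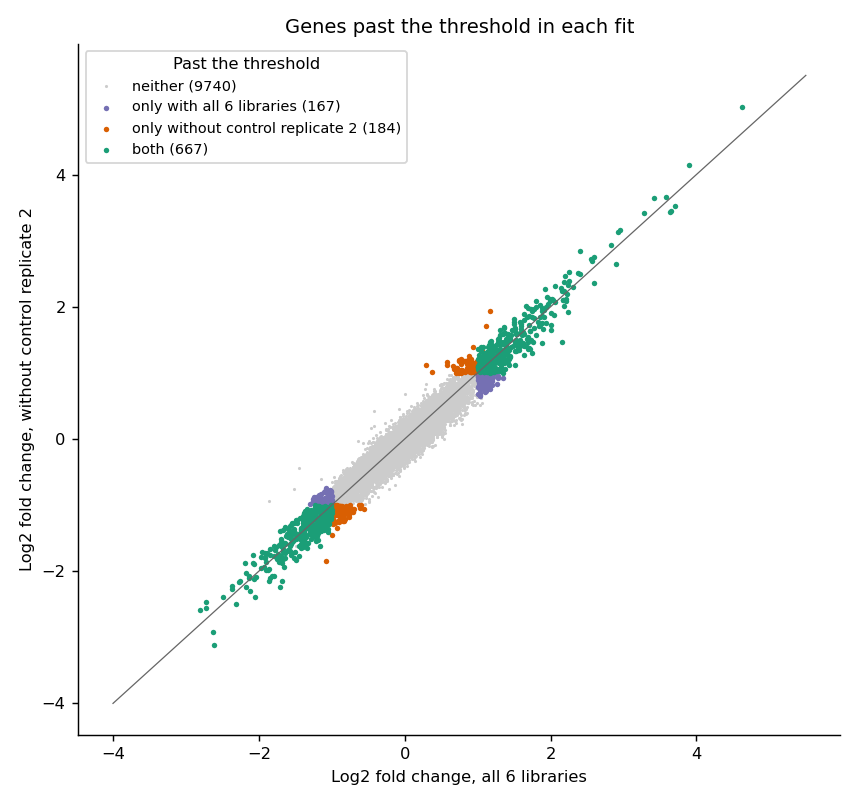
Log2 fold change of each of the 10758 genes with all 6 libraries (horizontal) and without control replicate 2 (vertical), on the log2(FPKM + 0.1) scale, coloured by the fit in which a gene is past the threshold (adjusted p below 0.05 and 2-fold). The 667 genes past it in both fits lie along the diagonal, and 167 and 184 genes are past it in 1 fit only.

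The largest changes were taken among genes past the threshold in both fits whose libraries did not overlap, so the lack of overlap in them is set by that choice. The 12 largest falls were in genes of several unlike functions. H2AX, the histone variant that is phosphorylated at DNA breaks, was at 85.3, 136 and 89.9 FPKM in the control libraries and 13.4, 15.4 and 14.6 FPKM in the knockdown libraries. The knockdown libraries held about the same level and lay far under every control, a log2 fold change of -2.80 (SE 0.18, limma adjusted p = 0.000192) and -2.59 without control replicate 2. SAPCD2, a regulator of spindle orientation, was at 33.2, 57.3 and 33.4 FPKM in the control libraries and 6.30, 5.93 and 5.67 FPKM in the knockdown libraries, a change of -2.72 (-2.46 without control replicate 2). Several mitochondrial proteins stood among the 12 largest falls. COX7C, a subunit of cytochrome c oxidase, was at 225, 321 and 223 FPKM in the control libraries and 39.8, 36.0 and 38.7 FPKM in the knockdown libraries (-2.72, -2.55 without control replicate 2). ACADM, the medium-chain acyl-CoA dehydrogenase of fatty acid oxidation, changed by -2.62, TACO1, the translational activator of mitochondrial COX1, by -2.37, PPIF, the matrix cyclophilin, by -2.36, and FDX1, the mitochondrial ferredoxin, by -2.32. The others were TWF1, an actin monomer binder (-2.61, -3.12 without control replicate 2), PMEPA1, an inhibitor of TGF-beta signalling (-2.49), NEURL1B, an E3 ligase of the Notch pathway (-2.26), HSPA1A, the inducible HSP70 (-2.19), and the antisense transcript DGUOK-AS1 (-2.27). HSPA1A shares near-identical sequence with HSPA1B, so the division of reads between them is uncertain.

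The 12 largest rises included secreted factors and stress genes. GDF15, a circulating cytokine of the TGF-beta superfamily that curbs appetite, was at 0.193, 0.731 and 0.343 FPKM in the control libraries and 10.9, 12 and 12.1 FPKM in the knockdown libraries. It rested on 13 to 798 reads a library, and its log2 fold change was 4.63 (SE 0.35, limma adjusted p = 0.000309) and 5.03 without control replicate 2. INHBE, the inhibin beta E chain, was at 0.436, 0.878 and 0.520 FPKM in the control libraries and 9.63, 10.2 and 10.6 FPKM in the knockdown libraries, a change of 3.90. The cytokines and receptors IL32 (3.71), TNFSF15 (3.66) and TNFRSF9 (3.64) followed. TSC22D3, the glucocorticoid-induced leucine zipper, was at 0.771, 0.846 and 0.617 FPKM in controls and 9.56, 10.0 and 10.2 FPKM in knockdowns, with a change of 3.58 (SE 0.13, limma adjusted p = 0.000126). CDKN1A, which encodes the CDK inhibitor p21, was at 1.18, 1.78 and 1.02 FPKM in controls and 10.7, 11.2 and 10.1 FPKM in knockdowns. Its change was 2.95 with all 6 libraries and 3.17 without control replicate 2. The remaining 5 were ADAMTS4, an aggrecan-cleaving protease (3.42), the antisense transcript BABAM2-AS1 (3.28), NUPR1, a stress-induced chromatin protein (2.93), the uncharacterized LOC105373817 (2.89) and IRAK2, a kinase of interleukin-1 receptor signalling (2.82). The size and order of these rises depend on the pseudocount, since control levels were low. With a pseudocount of 1 the change of IL32 was 1.47, that of ADAMTS4 was 1.47 and that of NUPR1 was 1.54, and with limma voom on recovered reads they were 5.07, 4.39 and 3.34. Every knockdown level of GDF15 was far above its highest control, which was control replicate 2.

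**Figure D3:**
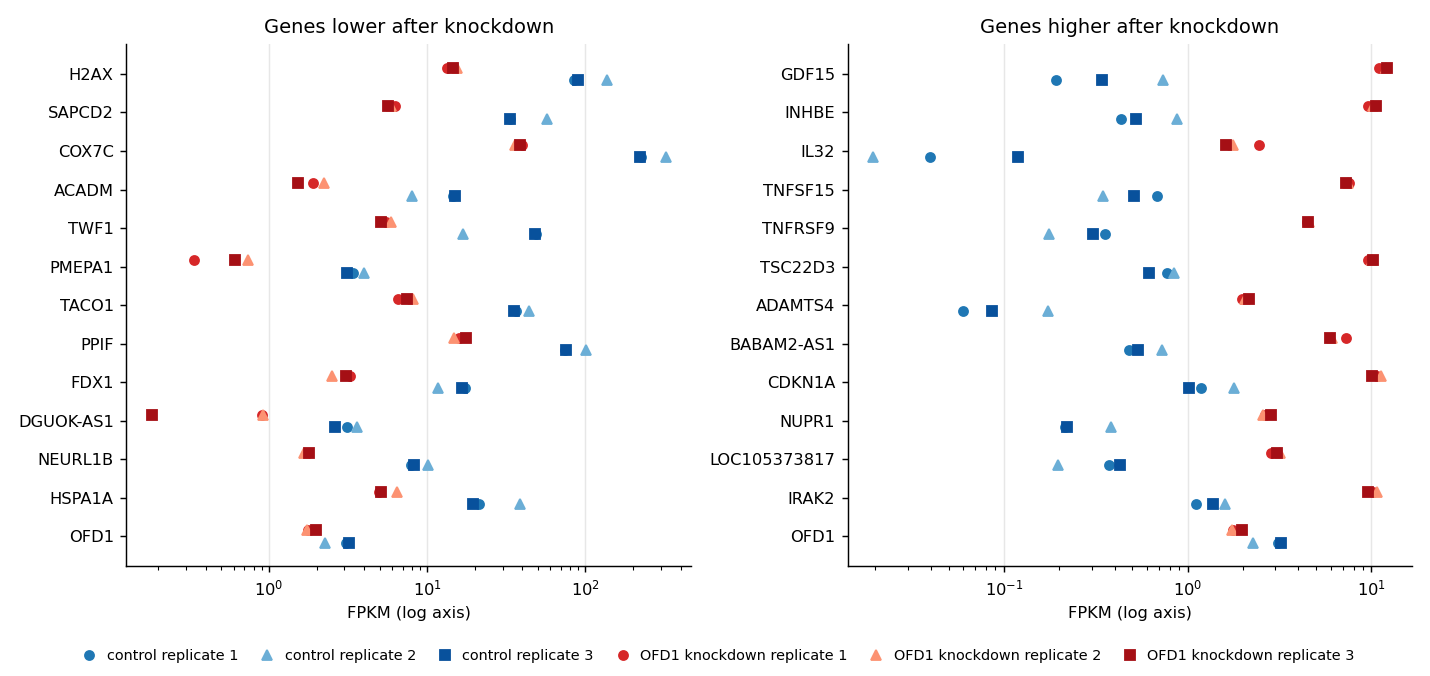
FPKM (log axis) in each of the 6 MIA PaCa-2 libraries for the 12 largest falls (left) and the 12 largest rises (right) among genes past the threshold in both fits, with OFD1 at the bottom of both panels. The points are single libraries, and the 3 knockdown libraries of each gene lie apart from all 3 controls, for OFD1 by a small gap (highest knockdown 1.97 FPKM, lowest control 2.27 FPKM).

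Genes were then grouped into 60 lists of known function, not all of them reported here, some with shared members, and a value in round brackets after a gene is its log2 fold change. The lists were written with earlier results of these data known. The minimum of 1 FPKM is a mean over all 6 libraries, so a gene low in controls could be tested through its knockdown level alone, and the reverse. Of all genes tested, 21.7% were lower and 18.7% higher at the adjusted p, which is the background of the counts with all 6 libraries below. Their median log2 fold change was -0.03 in both fits. The range given in brackets beside each count is that over the 6 fits that leave out 1 library. In every such range the highest count was the one without control replicate 2, and the lowest was in a fit without 1 of the knockdown libraries. The ends of a range have other backgrounds. Without control replicate 2, 40.0% of all genes tested were lower and 35.1% higher. Without a knockdown library, 1317 to 1348 of 10758 were lower and 1126 to 1141 higher. Across the fit without that control, 2 rescalings, a GC correction and a fit on recovered reads, the median changed sign in 7 lists, all of them within 0.28 of 0 in the fit of all 6 libraries.

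DNA replication genes fell more often than they rose. In the DREAM targets expressed at G1/S list, 44 [30 to 51] of 56 tested members were lower and 0 [0 to 0] higher, with a median of -0.67 (-0.60 without control replicate 2). GINS2, a subunit of the replicative helicase, was at 23.2, 21.4 and 23.6 FPKM in controls and 8.24, 6.83 and 7.72 FPKM in knockdowns (-1.57). UHRF1, which carries DNA methylation to the new strand, was at 47.2, 59.4 and 47.1 FPKM in controls and 17.3, 18 and 17.3 FPKM in knockdowns (-1.53). PCNA, the sliding clamp, was at 224, 192 and 224 FPKM in controls and 97.7, 94.8 and 94.6 FPKM in knockdowns, a change of -1.15 (SE 0.08, limma adjusted p = 0.000207) and -1.23 without control replicate 2. In all 3 genes the knockdown libraries were well under every control. Of 35 tested members of the list of replication licensing and the helicase, 22 [18 to 30] were lower and 0 [0 to 0] higher, with a median of -0.55 (-0.57 without control replicate 2). MCM10 changed by -1.29, MCM4 by -0.83 and the licensing factor CDC6 by -0.85. Among the 32 tested members of the list of DNA polymerases, PCNA and Okazaki processing, 14 [9 to 27] fell and 0 [0 to 2] rose, with a median of -0.35 (-0.38 without control replicate 2). The DNA polymerase epsilon subunit POLE3 changed by -1.34 and the primase-associated POLA2 by -1.01. The list of deoxynucleotide supply had 19 tested members, of which 10 [5 to 15] were lower and 1 [1 to 1] higher, with a median of -0.37 (-0.44 without control replicate 2). Among these, the ribonucleotide reductase subunit RRM2 changed by -1.05, the mitochondrial deoxyguanosine kinase DGUOK by -1.56 and the nucleotide pyrophosphatase DCTPP1 by -1.18, whereas cytidine deaminase (CDA) rose by 0.92. In bulk RNA, fewer cells in S phase and less RNA per such cell cannot be told apart.

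Mitotic genes fell as well. For DREAM targets expressed at G2/M, 34 [27 to 49] of 50 tested members were lower and 0 [0 to 0] higher, and the median was -0.65 (-0.78 without control replicate 2). PLK1, a kinase of mitotic entry and spindle assembly, was at 136, 153 and 132 FPKM in controls and 56.1, 55.8 and 59.0 FPKM in knockdowns (-1.30). GTSE1, which stabilizes spindle microtubules, was at 23.1, 23 and 22.0 FPKM in controls and 8.32, 8.16 and 8.20 FPKM in knockdowns (-1.45), and the kinesin KIF20A changed by -1.31. CCNB1, the cyclin of CDK1, was at 243, 253 and 240.0 FPKM in controls and 152, 148 and 151 FPKM in knockdowns, a smaller change of -0.70 (SE 0.05, limma adjusted p = 0.000315) and -0.68 without control replicate 2. The groups did not overlap in these 4 genes. Within the condensin, cohesin and kinetochore list, 22 [16 to 39] of 46 tested members fell and 1 [0 to 2] rose, with a median of -0.40 (-0.47 without control replicate 2). The kinetochore proteins SPC25 (-1.60), ZWINT (-1.42) and CENPN (-1.30) each fell by more than 2-fold. In the E2F, RB and DREAM subunits list, 9 [5 to 15] of 21 tested members were lower and 1 [1 to 3] higher, with a median of -0.33 (-0.43 without control replicate 2). FOXM1, the activator of mitotic genes, changed by -0.66, the repressor E2F8 by -1.11 and E2F2 by -0.71, while E2F5, a pocket protein partner, rose from 4.72, 2.76 and 4.20 FPKM to 9.80, 10.4 and 10.1 FPKM (1.39).

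Promoters of these genes were read for the sites through which DREAM is known to act. The promoter taken was the first listed RefSeq start of each gene in GRCh38.p14, with 250 bases before and 50 after it, and 8931 of 10758 tested genes (83.0%) had one. The cell cycle homology region was searched as TTTGAA or TTCGAA on both strands, the E2F site as TTTCCCGC or TTTGGCGC on both strands. The following windows hold the matched letters, or their reverse complement, in capitals, as read on the strand of the gene, in 4 mitotic genes and 3 replication genes that were past the threshold in both fits. A single match is marked in each window, and that of ANLN holds another on the opposite strand, just before the marked letters.
GTSE1 (chr22:46296833-46296860, forward strand): tcggagcccttTTCAAAccgaccaatcg
ANLN (chr7:36389831-36389858, forward strand): tgaaattcaaaTTTGAAcggctgcagag
PLK1 (chr16:23678849-23678876, forward strand): ccagcgccgcgTTTGAAttcggggagga
CENPA (chr2:26786027-26786054, forward strand): ggagcgagcgaTTTGAAcgcgagcggcg
GINS2 (chr16:85688968-85688995, reverse strand): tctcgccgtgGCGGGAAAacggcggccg
UHRF1 (chr19:4909477-4909504, forward strand): ccgagttttcGCGGGAAAaaaatcagag
PCNA (chr20:5126664-5126691, reverse strand): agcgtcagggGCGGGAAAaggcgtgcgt
A cell cycle homology region was present in 31 of 42 promoters of the G2/M list (73.8%) and 2 of 46 of the G1/S list (4.35%), against 11% of all tested promoters. The E2F letters were present in 21 of 46 promoters of the G1/S list (45.7%) and 1 of 42 of the G2/M list (2.38%), against 4.14% of all. Genes of these lists are known to carry such sites, so the shares describe the lists and not the response. Among the genes lower in both fits, 43 of 258 promoters (16.7%) held a cell cycle homology region and 16 (6.2%) held E2F letters. Of the 356 genes higher in both fits 273 (76.7%) had a promoter in the table, short of the 80% set as the least share for such a comparison, so it is void and no share of theirs is given.

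Cell cycle inhibitors moved in both directions. Of 17 tested members of the list of G1 cyclins and CDK inhibitors, 8 [5 to 10] were lower and 3 [3 to 6] higher, with a median of -0.24 (-0.28 without control replicate 2). Beside the rise of CDKN1A, the CDK inhibitor CDKN1B changed by 0.57 and the mitotic entry kinase WEE1 by 0.77. The INK4 family members CDKN2C and CDKN2D changed by -0.98 and -1.49, and the D-type cyclin CCND3 was at 18.6, 24.6 and 18.6 FPKM in controls and 10.2, 9.54 and 9.46 FPKM in knockdowns (-1.06). SESN2, a sensor of leucine and inhibitor of mTORC1, rose by 2.15 and GADD45A, a growth arrest gene, by 1.41, and both are known targets of ATF4. The nucleotide excision repair factor XPC was at 9.29, 10.8 and 10.3 FPKM in controls and 4.14, 4.37 and 5.31 FPKM in knockdowns (-1.12).

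Histone genes fell more often than they rose, and few repair genes moved far. Among the 26 tested members of the list of replication-dependent and variant histones, 14 [9 to 16] fell and 3 [2 to 5] rose, with a median of -0.46 (-0.36 without control replicate 2). CENPA, the centromeric histone H3, was at 45.1, 48.1 and 47.3 FPKM in controls and 21.8, 22.3 and 23 FPKM in knockdowns (-1.06), and H3-3B, which codes for replacement histone H3.3, changed by -0.79. The histone chaperone HIRA, which deposits it, changed by -1.29. H2BC5 was at 1.92, 2.93 and 2.64 FPKM in controls and 5.33, 5.58 and 5.56 FPKM in knockdowns and rose by 1.13. The list of homology-directed repair had 54 tested members, of which 13 [5 to 31] were lower and 5 [2 to 11] higher, with a median of -0.15 (-0.28 without control replicate 2). BRCA1, which directs resection at breaks in homologous recombination, was at 10.4, 7.22 and 10.9 FPKM in controls and 4.13, 4.01 and 4.08 FPKM in knockdowns, a change of -1.18 (SE 0.17, limma adjusted p = 0.00237) and -1.37 without control replicate 2. It was the only member of the list lower by more than 2-fold in the fit of all 6 libraries. The nuclease EXO1 changed by -0.70. BABAM2, a scaffold subunit of the BRCA1-A complex, moved the other way, at 27.5, 25.2 and 26.7 FPKM in controls and 69.8, 70.9 and 70.3 FPKM in knockdowns (1.41), and so did the checkpoint kinase CHEK2 (0.82). For Fanconi anemia pathway, 7 [2 to 11] of 23 tested members were lower and 2 [0 to 7] higher, and the median was -0.10 (-0.26 without control replicate 2). The deubiquitinase USP1 was at 39.6, 23.5 and 38.4 FPKM in controls and 14.9, 16.5 and 15.4 FPKM in knockdowns (-1.08) and the E2 enzyme UBE2T changed by -0.75. Within the mismatch and base excision repair list, 10 [1 to 14] of 29 tested members fell and 1 [0 to 6] rose, with a median of -0.16 (-0.08 without control replicate 2). The glycosylases NEIL3 (-0.61) and NEIL2 (-0.60) passed the test, and both calls were lost without knockdown replicate 1 or 3. In the PARP inhibitor response list, 9 [4 to 14] of 23 tested members were lower and 2 [1 to 6] higher, with a median of -0.22 (-0.23 without control replicate 2). In that list, genes whose loss or level is known to alter sensitivity to PARP inhibitors, the shieldin subunit SHLD2 was at 9.36, 6.02 and 9.26 FPKM in controls and 2.97, 3.05 and 3.05 FPKM in knockdowns (-1.38), DYNLL1 changed by -1.09 and the flap endonuclease FEN1 by -0.98.

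Genes of the centriole and cilium, the compartment of OFD1, did not move as one. Of 24 tested members of the list of centriolar satellite proteins, 4 [1 to 11] were lower and 3 [1 to 6] higher, with a median of -0.06 (-0.18 without control replicate 2), OFD1 included. Its median was within the range of the 3 controls in every knockdown library when all 6 were used. SPAG5, a spindle and satellite protein, was at 59.2, 58.8 and 56.9 FPKM in controls and 20.8, 21 and 21.1 FPKM in knockdowns (-1.47) and was the only member past 2-fold. PCM1, the scaffold of the satellites, was at 9.36, 6.40 and 9.75 FPKM in controls and 11.8, 11.9 and 11.8 FPKM in knockdowns, a change of 0.49 that did not pass the test (limma adjusted p = 0.0525) and of 0.30 without control replicate 2, where it did (limma adjusted p = 0.000176). The satellite protein BBS4 rose, from 3.29, 3.57 and 3.61 FPKM to 5.16, 6.04 and 5.75 FPKM (0.68). Among the 55 tested members of the list of primary cilium and basal body, 8 [2 to 13] fell and 24 [14 to 33] rose, with a median of 0.34 in both fits. DYNC2H1, the heavy chain of the retrograde ciliary motor, was at 0.992, 0.520 and 1.04 FPKM in controls and 2.83, 2.91 and 3.26 FPKM in knockdowns (1.76, 1.47 without control replicate 2), its light intermediate chain DYNC2LI1 changed by 1.24, and the BBSome subunit BBS2 by 0.74. BBS12, a chaperonin-like protein of BBSome assembly, changed by 1.22. The distal appendage protein SCLT1 (-0.83) and the transition zone protein TMEM237 (-0.90) fell. The list of centriole duplication had 27 tested members, of which 7 [2 to 17] were lower and 3 [0 to 6] higher, with a median of -0.22 (-0.26 without control replicate 2). Pericentrin (PCNT) changed by -0.67 and CEP78 by -1.04. For Hedgehog pathway, 4 [3 to 6] of 10 tested members were lower and 0 [0 to 3] higher, and the median was -0.31 (-0.24 without control replicate 2). That pathway signals through the cilium, and 16 of its 26 listed genes were at 0 or below the minimum level. The ligand SHH was at 3.45, 4.39 and 3.60 FPKM in controls and 1.48, 1.55 and 1.48 FPKM in knockdowns (-1.28), the coreceptor GAS1 changed by -0.86 and the kinase CSNK1A1 by -0.96.

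**Figure D4:**
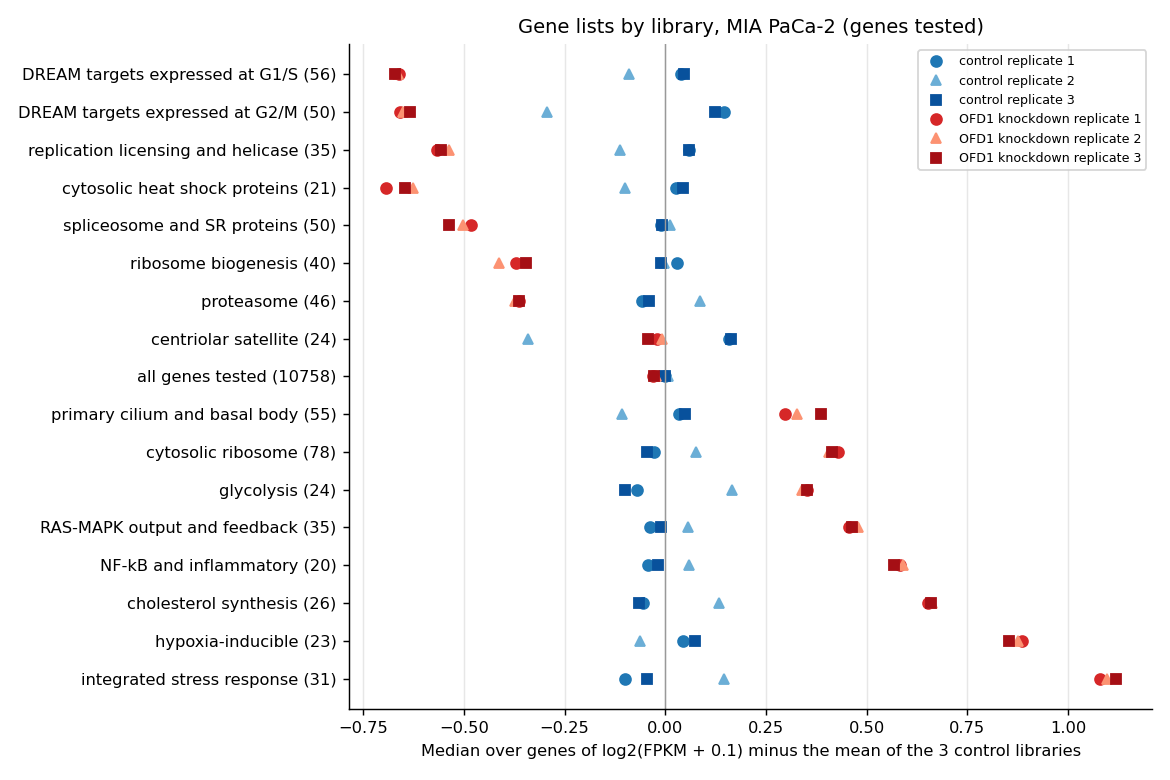
Median over the tested genes of 16 lists, and of all genes tested, of the level in each library minus the mean of the 3 controls, on the log2(FPKM + 0.1) scale. The number after each name is the genes tested. The knockdown libraries lie together and apart from the controls for the lists that fell (DREAM G1/S targets, near -0.67) and rose (integrated stress response, near 1.10), while for the centriolar satellite list they lie between control replicate 2 and the other controls.

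Genes of the integrated stress response rose more than those of any other of the 60 lists by median. Within the integrated stress response list, 0 [0 to 2] of 31 tested members fell and 25 [21 to 27] rose, with a median of 1.11 (1.13 without control replicate 2), and 16 members were higher by more than 2-fold. Of its 37 listed genes, 2 were at 0 and 4 below the minimum level. Its members GDF15, INHBE and CHAC1 were below 1 FPKM in every control, so they were tested only because of their knockdown levels. ATF4 was at 27.1, 31.0 and 27.4 FPKM in controls and 50.1, 49.9 and 51.2 FPKM in knockdowns (0.82). ATF3, a factor downstream of it, was at 1.34, 1.75 and 1.26 FPKM in controls and 7.76, 7.81 and 8.14 FPKM in knockdowns (2.38), and DDIT3, which encodes CHOP, was at 7.72, 12.5 and 9.37 FPKM in controls and 24.0, 23.3 and 23.7 FPKM in knockdowns (1.28). The groups did not overlap in any of the 3. TRIB3, a pseudokinase that binds ATF4, changed by 1.80. CHAC1, which degrades glutathione, was at 0.735, 0.884 and 0.787 FPKM in controls and 2.36, 2.51 and 2.16 FPKM in knockdowns (1.44, SE 0.13, limma adjusted p = 0.000487, 1.5 without control replicate 2). TXNIP, an inhibitor of glucose uptake counted in the list, changed by 1.71, and BHLHE40 by 1.51. ATF5, SLC3A2 and XPOT, also known targets, did not pass the test, with changes of -0.33, -0.12 and 0.06. ATF4, ATF3, DDIT3, TRIB3, ATF5, SLC3A2 and XPOT, and PCM1 above, were named after their values were seen. In the integrated stress response kinases and eIF2 machinery list, 6 [0 to 8] of 18 tested members were lower and 1 [0 to 6] higher, with a median of 0.08 (-0.09 without control replicate 2). No member of that list passed 2-fold, and 0 to 1 of its members were lower when a knockdown library was left out.

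The element bound by ATF4 with a C/EBP partner was searched as TGATGNAAN on both strands. Of the 15 members of the stress list past the threshold in both fits, 12 had a promoter in the table. Matches in 3 of these are shown in capitals on the strand of the gene, and these need not be all that held one.
ATF3 (chr1:212565207-212565234, forward strand): aggtcaggaTGATGGAAGgctgtcatat
ASNS (chr7:97872458-97872485, reverse strand): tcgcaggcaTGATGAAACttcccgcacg
CHAC1 (chr15:40953252-40953279, forward strand): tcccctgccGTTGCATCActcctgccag
In CHAC1 the letters lie on the opposite strand. Among all tested members of the list 6 of 25 promoters (24.0%) held a match, against 1.5% of all tested promoters. A match is a description of these letters in this window.

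Amino acid supply followed in part. Of 30 tested members of the list of serine, glycine, asparagine, proline and folate enzymes, 2 [1 to 6] were lower and 14 [10 to 19] higher, with a median of 0.33 in both fits. Asparagine synthetase (ASNS) was at 0.640, 1.01 and 0.665 FPKM in controls and 3.51, 3.13 and 3.05 FPKM in knockdowns (1.96, SE 0.18, limma adjusted p = 0.000574, 2.14 without control replicate 2). Cystathionine gamma-lyase (CTH), which makes cysteine, was at 2.43, 2.26 and 2.86 FPKM in controls and 11.8, 11.7 and 11.3 FPKM in knockdowns (2.17). The argininosuccinate synthase ASS1 changed by 1.27 and the alanine transaminase GPT2 by 1.07. The polyamine enzyme ODC1 fell, from 80.3, 74.5 and 76.9 FPKM to 37.2, 36.7 and 36.9 FPKM (-1.06). Among the 17 tested members of the list of amino acid transporters, 4 [3 to 5] fell and 5 [4 to 7] rose, with a median of 0.09 (0.06 without control replicate 2). SLC43A1, which carries branched-chain amino acids, was at 1.30, 1.29 and 0.975 FPKM in controls and 4.48, 4.02 and 4.30 FPKM in knockdowns (1.77), and SLC1A4 changed by 1.07. SLC7A6 (-1.11) and SLC36A1 (-1.51) fell. The list of cytosolic aminoacyl-tRNA synthetases had 24 tested members, of which 8 [6 to 12] were lower and 10 [8 to 12] higher, with a median of -0.12 (-0.07 without control replicate 2). The glycine, cysteine, alanine and serine enzymes rose (GARS1 1.01, CARS1 0.88, AARS1 0.84 and SARS1 0.56), and the phenylalanine, arginine and histidine enzymes fell (FARSB -1.31, RARS1 -0.85 and HARS1 -0.59). For mitochondrial aminoacyl-tRNA synthetases, 5 [1 to 9] of 17 tested members were lower and 1 [0 to 4] higher, and the median was -0.22 (-0.20 without control replicate 2). The mitochondrial leucine enzyme LARS2 changed by -0.62. Within the nutrient-sensing and mTORC1 regulators list, 2 [0 to 6] of 29 tested members fell and 9 [6 to 17] rose, with a median of 0.23 in both fits. CASTOR1, the arginine sensor, was at 4.27, 6.33 and 4.26 FPKM in controls and 16.1, 17.7 and 16.1 FPKM in knockdowns (1.75).

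Protein folding genes fell in the cytosol and were divided in the endoplasmic reticulum. In the cytosolic heat shock proteins list, 15 [13 to 17] of 21 tested members were lower and 1 [0 to 2] higher, with a median of -0.69 (-0.64 without control replicate 2). HSPA8, the constitutive HSP70, was at 1419, 1271 and 1399.9 FPKM in controls and 692, 687 and 684 FPKM in knockdowns (-0.99). DNAJA1, its J-domain partner, was at 143, 137 and 147 FPKM in controls and 65.4, 65.2 and 62.7 FPKM in knockdowns (-1.14), and STIP1, which links HSP70 to HSP90, changed by -0.75. Of 30 tested members of the list of endoplasmic reticulum chaperones and unfolded protein response, 12 [8 to 19] were lower and 6 [4 to 8] higher, with a median of -0.24 (-0.26 without control replicate 2). The chaperones HSPA5 (-0.64), PDIA4 (-0.76) and CALR (-1.23) and the sensor ATF6 (-0.96) fell. DNAJB9 was at 5.74, 3.98 and 6.30 FPKM in controls and 14.2, 15.1 and 13.9 FPKM in knockdowns (1.44), and HERPUD1 (0.85), XBP1 (0.56) and the sensor ERN1 (0.99) rose. Among the 46 tested members of the list of proteasome subunits, 23 [14 to 38] fell and 1 [1 to 5] rose, with a median of -0.35 (-0.33 without control replicate 2). The lid subunit PSMD11 was at 73.9, 77.8 and 72.2 FPKM in controls and 36.9, 37.4 and 35.8 FPKM in knockdowns (-1.02) and the alpha ring subunit PSMA3 changed by -0.95. The immunoproteasome subunit PSMB8 was higher (0.91). The list of autophagy genes had 39 tested members, of which 1 [0 to 7] were lower and 18 [10 to 26] higher, with a median of 0.35 (0.27 without control replicate 2). WIPI1 was at 2.03, 1.88 and 2.30 FPKM in controls and 5.61, 5.82 and 6.14 FPKM in knockdowns (1.46), the receptor OPTN changed by 1.2 and GABARAPL1 by 1.39. For lysosomal hydrolases and V-ATPase, 17 [10 to 25] of 50 tested members were lower and 10 [5 to 16] higher, and the median was -0.15 in both fits. Cathepsin Z (CTSZ) changed by -1.32, cathepsin C (CTSC) by -0.74 and the palmitoyl thioesterase PPT1 by -0.66, and the lysosomal mannosidase MAN2B1 by 0.78.

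RNA processing genes fell, and ribosomal protein genes rose. Within the spliceosome and SR proteins list, 38 [25 to 41] of 50 tested members fell and 2 [1 to 3] rose, with a median of -0.49 (-0.48 without control replicate 2). SRSF3 was at 117, 117 and 121 FPKM in controls and 56.6, 58.0 and 55.2 FPKM in knockdowns (-1.06), and SRSF6, SRSF7 and SRSF2 changed by -1.06, -1.0 and -0.99. The kinase CLK1, which phosphorylates SR proteins, rose by 0.77. In the ribosome biogenesis list, 20 [13 to 33] of 40 tested members were lower and 0 [0 to 4] higher, with a median of -0.36 (-0.31 without control replicate 2). The RNA polymerase I factor RRN3 was at 28.2, 21.5 and 28.5 FPKM in controls and 9.40, 9.91 and 10.2 FPKM in knockdowns (-1.39), and UBTF and NOP56 changed by -1.0 and -0.87. Of 78 tested members of the list of cytosolic ribosomal proteins, 0 [0 to 2] were lower and 59 [43 to 74] higher, with a median of 0.42 (0.46 without control replicate 2). RPL12 was at 1267, 1156 and 1274 FPKM in controls and 2642, 2570.3 and 2567 FPKM in knockdowns (1.07) and was the only member past 2-fold, with RPS12 at 0.78 and RPS18 at 0.70. Ribosomal protein genes have many processed pseudogenes, so their counts are uncertain where reads matched both. Among the 20 tested members of the list of snoRNA host genes, 5 [2 to 7] fell and 9 [6 to 11] rose, with a median of 0.29 in both fits. GAS5 changed by 0.70 and EPB41L4A-AS1 by 1.08.

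Genes of low oxygen, glucose and sterol metabolism rose. The list of hypoxia-inducible genes had 23 tested members, of which 0 [0 to 0] were lower and 20 [13 to 23] higher, with a median of 0.91 (1.01 without control replicate 2). ANKRD37 was at 2.51, 2.81 and 2.11 FPKM in controls and 12.5, 11 and 12.6 FPKM in knockdowns (2.24), VEGFA, the vascular growth factor, was at 6.35, 5.92 and 5.86 FPKM in controls and 15, 14.7 and 14.6 FPKM in knockdowns (1.27), and NDRG1 changed by 1.59. For glycolysis, 0 [0 to 1] of 24 tested members were lower and 13 [10 to 22] higher, and the median was 0.35 (0.51 without control replicate 2). The glucose transporter SLC2A3 was at 23, 20.2 and 23.6 FPKM in controls and 98.2, 101 and 101 FPKM in knockdowns (2.17), with a knockdown level several times every control. Aldolase C (ALDOC) was at 7.07, 8.78 and 6.35 FPKM in controls and 35.5, 36.5 and 34.2 FPKM in knockdowns (2.25), hexokinase 2 (HK2) changed by 1.18 and PGK1 by 0.90. Within the cholesterol synthesis list, 1 [1 to 1] of 26 tested members fell and 17 [11 to 22] rose, with a median of 0.66 (0.62 without control replicate 2). HMGCS1, an early enzyme of the mevalonate pathway, was at 12.2, 8.98 and 10.9 FPKM in controls and 27.6, 29.2 and 27.7 FPKM in knockdowns (1.40), and INSIG1, which holds SREBP in the endoplasmic reticulum, changed by 1.42, beside 1.0 for farnesyl diphosphate synthase (FDPS). In the fatty acid synthesis and desaturation list, 1 [1 to 3] of 17 tested members were lower and 7 [6 to 11] higher, with a median of 0.40 (0.38 without control replicate 2). ACSS2, which makes acetyl-CoA from acetate, was at 9.57, 11.5 and 11 FPKM in controls and 39.2, 38.5 and 40.5 FPKM in knockdowns (1.88), the desaturase FADS1 changed by 0.88, and the elongase ELOVL1 fell (-0.65).

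Mitochondrial genes showed no common direction. Of 77 tested members of the list of nuclear-encoded respiratory chain and ATP synthase, 9 [6 to 19] were lower and 10 [4 to 41] higher, with a median of 0.03 (0.13 without control replicate 2). The count of higher members depended most on control replicate 2, and COX7C was the only member past 2-fold. The ATP synthase subunit ATP5PB fell (-0.72) while ATP5PD rose (0.59), and complex I was divided likewise between NDUFA12 (-0.67) and NDUFA3 (0.38). Among the 77 tested members of the list of mitochondrial ribosomal proteins, 26 [15 to 51] fell and 4 [0 to 14] rose, with a median of -0.27 (-0.24 without control replicate 2). MRPL51 was at 144, 173 and 137 FPKM in controls and 88.0, 87.7 and 85.8 FPKM in knockdowns (-0.78) and MRPL18 changed by -0.65. The list of mitochondrial stress response had 18 tested members, of which 5 [2 to 10] were lower and 1 [0 to 3] higher, with a median of -0.14 (-0.10 without control replicate 2). The import subunit TIMM17A changed by -0.75 and the chaperonin HSPE1 by -0.73. For mitochondrially encoded genes, 1 [1 to 5] of 13 tested members were lower and 4 [3 to 7] higher, and the median was 0.28 (0.09 without control replicate 2), and the median turned to -0.15 under quantile normalization. COX1 was at 6256, 4551 and 6334 FPKM in controls and 9299, 9387 and 9258 FPKM in knockdowns (0.72), and ND6, the gene on the light strand, was at 222, 357 and 199.9 FPKM in controls and 68.6, 64.8 and 60.9 FPKM in knockdowns (-1.96). Use of strand in counting was not stated, so reads of ND6 and of transcripts opposite it cannot be told apart. Within the NRF2 antioxidant genes list, 7 [4 to 11] of 26 tested members fell and 6 [4 to 14] rose, with a median of 0.07 (0.10 without control replicate 2). Haem oxygenase 1 (HMOX1) was at 15.3, 18.6 and 15.2 FPKM in controls and 40.4, 37.3 and 38.9 FPKM in knockdowns (1.25), and the ferritin chains FTH1 and FTL rose by 0.86 and 0.64. KEAP1, the inhibitor of NRF2, was at 24.0, 38.8 and 25.8 FPKM in controls and 11.6, 11.8 and 12 FPKM in knockdowns (-1.28), and NQO1 and SRXN1 fell (-0.62 and -0.75).

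Inflammatory genes and genes of RAS-MAPK output rose more often than they fell. In the NF-kB and inflammatory genes list, 1 [0 to 3] of 20 tested members were lower and 13 [10 to 16] higher, with a median of 0.61 (0.70 without control replicate 2). Of its 39 listed genes, 7 were at 0 and 12 below the minimum level, so the counts cover only part of the list. The rise of its member IL32 was 3.71, and 1.47 with a pseudocount of 1. CXCL8, the chemokine interleukin-8, was at 9.35, 5.64 and 9.04 FPKM in controls and 47.5, 49.5 and 45.7 FPKM in knockdowns (2.59). TRAF1 was at 1.04, 1.36 and 0.828 FPKM in controls and 6.61, 6.65 and 6.78 FPKM in knockdowns (2.55), and the urokinase PLAU changed by 1.33. Of 32 tested members of the list of interferon-stimulated genes, 6 [2 to 9] were lower and 9 [2 to 17] higher, with a median of 0.22 (0.18 without control replicate 2). IFIT2 (-0.74) and OASL (-0.66) fell, and GBP2 rose by 1.88. Among the 35 tested members of the list of RAS-MAPK output and feedback, 2 [1 to 4] fell and 19 [17 to 28] rose, with a median of 0.45 (0.42 without control replicate 2). DUSP5, a phosphatase of nuclear ERK, was at 7.03, 7.19 and 7.03 FPKM in controls and 24.0, 23.4 and 22.8 FPKM in knockdowns (1.71). DUSP6, its cytoplasmic counterpart, was at 1.27, 1.2 and 1.25 FPKM in controls and 2.83, 2.61 and 2.98 FPKM in knockdowns (1.12), beside 1.54 for the early gene EGR1 and 0.76 for the feedback inhibitor SPRY4. HRAS fell (-0.96). The list of EGFR family, MET and ligands had 18 tested members, of which 1 [0 to 2] were lower and 6 [2 to 11] higher, with a median of 0.25 (0.34 without control replicate 2). The ligand HBEGF was at 2.17, 2.10 and 2.02 FPKM in controls and 6.02, 7.0 and 6.92 FPKM in knockdowns (1.62). For TGF-beta superfamily ligands and receptors, 8 [6 to 12] of 23 tested members were lower and 6 [5 to 6] higher, and the median was -0.09 (-0.19 without control replicate 2). The inhibitors of differentiation ID1 (-1.23), ID2 (-1.23) and ID3 (-1.17), which BMP signalling induces, fell, and the BMP antagonist noggin (NOG) was at 4.69, 6.15 and 5.06 FPKM in controls and 14.2, 13.5 and 15 FPKM in knockdowns (1.42). Within the YAP and TGF-beta targets list, 5 [2 to 6] of 19 tested members fell and 6 [3 to 10] rose, with a median of 0.09 (0.20 without control replicate 2). YAP1 itself was at 24.4, 16.9 and 23.9 FPKM in controls and 9.23, 8.71 and 8.90 FPKM in knockdowns (-1.25), and the matricellular protein CCN1 rose by 1.38. In the Wnt pathway list, 5 [3 to 12] of 24 tested members were lower and 3 [1 to 6] higher, with a median of -0.13 (-0.14 without control replicate 2). TCF7 was at 6.57, 7.05 and 6.46 FPKM in controls and 2.59, 2.74 and 2.49 FPKM in knockdowns (-1.33) and the receptor ROR1 changed by -1.40. Of 33 tested members of the list of BCL2 family and death receptors, 8 [2 to 13] were lower and 8 [7 to 13] higher, with a median of -0.00 (0.08 without control replicate 2). BIRC3, an inhibitor of apoptosis, was at 6.25, 3.34 and 5.80 FPKM in controls and 19.8, 20.3 and 20.2 FPKM in knockdowns (2.0), MCL1 changed by 0.84, and caspase 2 (CASP2) by -0.93.

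Lists of cell identity and shape had medians within 0.30 of 0 in both fits, with members called in both directions. Among the 22 tested members of the list of collagens, laminins and collagen-modifying enzymes, 4 [2 to 6] fell and 8 [3 to 14] rose, with a median of 0.11 (0.20 without control replicate 2). PLOD3, a collagen lysyl hydroxylase, changed by -1.14. COL3A1, the type III collagen chain, was at 6.75, 6.03 and 6.32 FPKM in controls and 30.6, 30.2 and 29.6 FPKM in knockdowns (2.23, SE 0.08, limma adjusted p = 0.000126). The collagen chaperone SERPINH1 fell, with 110.3, 148 and 108 FPKM in controls and 46.2, 45.5 and 46.3 FPKM in knockdowns (-1.39). The list of integrins had 8 tested members, of which 3 [2 to 4] were lower and 1 [1 to 2] higher, with a median of -0.17 (-0.30 without control replicate 2). ITGB4 was at 0.629, 1.46 and 0.664 FPKM in controls and 2.82, 2.97 and 2.97 FPKM in knockdowns (1.66), and ITGA3 and ITGB5 fell (-0.85 and -0.80). For epithelial state, 3 [3 to 4] of 12 tested members were lower and 4 [1 to 6] higher, and the median was 0.00 (0.14 without control replicate 2). Claudin 4 (CLDN4) was at 5.09, 9.61 and 4.74 FPKM in controls and 16.6, 17.7 and 18.6 FPKM in knockdowns (1.5), and KRT8 changed by -0.75. Within the mesenchymal state list, 1 [1 to 2] of 8 tested members fell and 3 [1 to 5] rose, with a median of 0.15 (0.24 without control replicate 2). VIM rose from 3476, 3586 and 3475 FPKM to 4954, 4778 and 4968 FPKM (0.48). In the actin, tubulin and their regulators list, 15 [9 to 18] of 38 tested members were lower and 8 [5 to 15] higher, with a median of -0.14 (-0.07 without control replicate 2). TUBA1A was at 62.5, 72.5 and 66.7 FPKM in controls and 147, 153 and 153 FPKM in knockdowns (1.17), and TAGLN2 and TUBB4B fell (-0.88 and -0.92). Of 14 tested members of the list of semaphorins, neuropilins and plexins, 1 [0 to 4] were lower and 1 [0 to 6] higher, with a median of -0.08 (0.08 without control replicate 2). Among the 6 tested members of the list of pancreatic epithelial transcription factors, 2 [0 to 2] fell and 3 [1 to 3] rose, with a median of 0.02 (0.05 without control replicate 2). KLF4 changed by 0.51. The list of oncofetal RNA-binding and HMGA genes had 5 tested members, of which 1 [1 to 1] were lower and 2 [0 to 3] higher, with a median of 0.17 (0.27 without control replicate 2). The imprinted noncoding RNA H19 was at 15.8, 26.6 and 15.7 FPKM in controls and 9.51, 9.15 and 8.88 FPKM in knockdowns (-1.02). For aryl hydrocarbon receptor targets, 1 [1 to 2] of 5 tested members were lower and 2 [1 to 2] higher, and the median was 0.09 (0.06 without control replicate 2). ARNT, the partner of the receptor, changed by 0.81. PTPRC, the leukocyte phosphatase CD45 noted above, was at 4.45, 2.32 and 3.76 FPKM in controls and 6.22, 5.89 and 5.90 FPKM in knockdowns and rose by 0.81 (limma adjusted p = 0.0312), a call that was lost when any knockdown library was left out, and its part in other results was not tested.

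**Figure D5:**
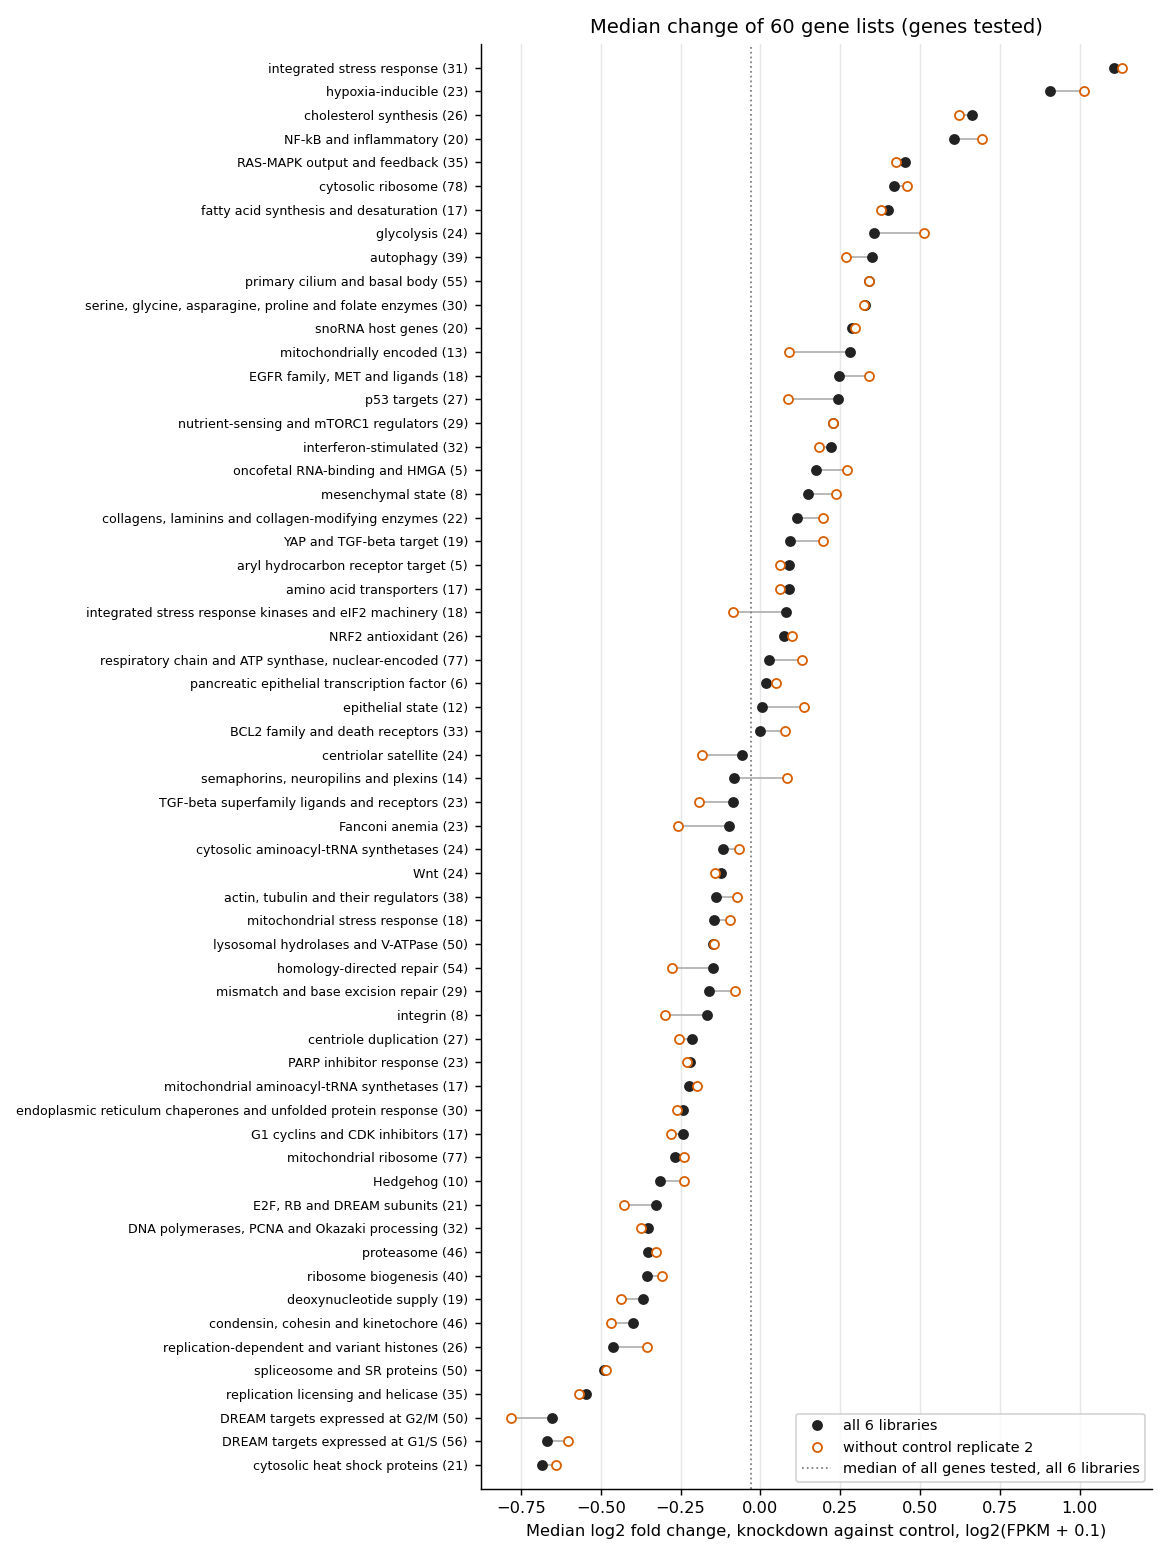
Median log2 fold change of the tested members of each of the 60 lists, ordered, with all 6 libraries (filled) and without control replicate 2 (open), on the log2(FPKM + 0.1) scale. The dotted line is the median of all genes tested (-0.03), and the lists run from -0.69 for cytosolic heat shock proteins to 1.11 for the integrated stress response.

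Long noncoding RNAs were more often among the genes that rose. By RefSeq gene type, 89 of 423 higher genes with an entry were long noncoding (21%) and 11 of 392 lower genes were (2.81%), against 574 of 10576 genes tested (5.43%). In the genes past the threshold in both fits the shares were 22.3% and 2.93%. These are counts over genes, which are not independent, and were not tested. The median level was 3.74 FPKM in the higher genes, 8.69 FPKM in the lower genes and 8.74 FPKM in all genes tested. Whether the shares depend on that level or on the pseudocount was not tested. Since strand use was not stated, an antisense RNA and its partner cannot be told apart. BABAM2-AS1 was at 0.477, 0.727 and 0.540 FPKM in controls and 7.24, 6.12 and 5.98 FPKM in knockdowns, and BABAM2 rose beside it. DGUOK-AS1 was at 3.13, 3.60 and 2.60 FPKM in controls and 0.901, 0.920 and 0.182 FPKM in knockdowns. DGUOK, its partner, was at 40.3, 44.8 and 38.1 FPKM in controls and 13.0, 14.2 and 14.4 FPKM in knockdowns and fell beside it. Across chromosomes the median change of tested genes lay between -0.18, on chromosome 16, and 0.05, on chromosome X, with all 6 libraries, and between -0.16, on chromosome 13, and 0.07, on chromosome 19, without control replicate 2.

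Some calls stood or fell with control replicate 2. Among genes lower by more than 2-fold only with all 6 libraries, CENPB, a centromere protein, was at 46.1, 96.6 and 47.2 FPKM in controls and 28, 27.9 and 28 FPKM in knockdowns (-1.08, -0.74 without that library). The deoxyhypusine hydroxylase DOHH (-1.24, then -0.89) and the proton pump subunit ATP6V0B (-1.26, then -0.91) had control replicate 2 at 19.4 and 75.6 FPKM, against 9.12 to 9.29 and 35.3 to 37.9 FPKM in the other controls. CTBS (1.26, then 0.83) and ZNF292 (1.17, then 0.75) were higher by more than 2-fold only with it and stayed past the adjusted p without it, and control replicate 2 was well below the other controls in each. The calls of CENPB, DOHH, CTBS and ZNF292 were lost when any knockdown library was left out, and that of ATP6V0B without knockdown replicate 1. MANEA (-0.56, then -1.06) and THAP5 (-1.0, then -1.45) were called lower only without it. LOC102724594 (-1.08, then -1.85) missed the adjusted p with all 6 libraries and passed without it, where control replicate 1 at 10.3 FPKM stood far above control replicate 3 at 1.85 FPKM. LOC105378179, H4C8 and NPEPL1 were called higher only without it. NPEPL1 was at 0.548, 2.56 and 0.656 FPKM in controls and 1.43, 1.32 and 1.22 FPKM in knockdowns, so its knockdown libraries lay between control replicate 2 and the other 2 controls.

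The response was set beside those of the other 2 lines of the series, PANC-1 and PaTu 8988T, each with 3 control and 3 knockdown libraries, for 8 genes fixed for this comparison. They were chosen with earlier results of these data known. H2AX and GDF15 had the largest fall and the largest rise of all genes tested in MIA PaCa-2. That choice favours a difference from other lines, and the p-values do not allow for it. An interaction term was fitted with limma over all 18 libraries for 9083 genes, of which 43.4% differed in response between MIA PaCa-2 and PANC-1 and 52.9% between MIA PaCa-2 and PaTu 8988T at the adjusted p, so a difference was common. OFD1 fell less in MIA PaCa-2 (-0.61) than in PANC-1 (-1.07, limma adjusted p = 0.0331 for the difference) and PaTu 8988T (-1.10, limma adjusted p = 0.0193). H2AX fell more than in either, with -1.57 in PANC-1 and -0.16 in PaTu 8988T (limma adjusted p = 6.51e-05 and 1.28e-08). GDF15, at -0.30 and 0.58 in the other lines, rose by 4.63 in MIA PaCa-2 (limma adjusted p = 2.60e-08 and 8.73e-08). BRCA1 fell by 1.18 on the log2 scale, less than in PANC-1 (-1.66, limma adjusted p = 0.0261), and no difference from PaTu 8988T passed the test (-1.22, limma adjusted p = 0.864, difference 0.04 with SE 0.16). PCNA and CCNB1 fell in MIA PaCa-2 but were at 0.30 and 0.10 in PaTu 8988T (limma adjusted p = 2.09e-09 and 1.59e-08). Against PANC-1 the difference for PCNA did not pass (-0.12, SE 0.09, limma adjusted p = 0.258), while that for CCNB1 did (0.21, limma adjusted p = 0.00787). CHAC1 rose less than in PaTu 8988T (2.76, limma adjusted p = 8.28e-08), and its difference from PANC-1 did not pass (0.24, SE 0.11, limma adjusted p = 0.0875). ASNS was not among the 9083 genes and was not compared. The PANC-1 differences for BRCA1, PCNA and CHAC1, the PaTu 8988T difference for BRCA1 and that for OFD1 changed call or sign under an alternative, as given in the closing section.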

How the data were processed

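RNA-seq of 6 MIA PaCa-2 libraries (3 shControl, 3 shOFD1) was taken from a table of FPKM that the authors deposited. By the study's methods reads were aligned with HISAT2, counted with HTSeq-count and scaled to FPKM; versions, annotation and use of strand are not given in the sources used here. The methods name a different extraction and library kit from the labels, and the submitters' processing notes name hg38 beside mouse builds. Whole reads were recovered from the steps of the FPKM values (within 0.001 of a whole number) for all 20604 genes above 0, and gave totals of 37995561 to 39797537 reads; 6064 genes were listed at 0 in all 6 libraries. On simulated libraries 98.9% of 7802 genes had their reads recovered exactly.

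Genes with a mean of at least 1 FPKM were fitted as log2(FPKM + 0.1) with limma 3.58.1 in R 4.3.3 (trended variance, Benjamini-Hochberg adjustment). Genes were called at adjusted p under 0.05, with a 2-fold limit added for the largest changes. In simulated data over 10758 genes the fit called 68.0%, 86.0% and 95.5% of 200 genes planted at log2 changes of 1, 1.5 and 2. It also called 5, 13 and 11 unchanged genes. The simulated noise was independent between libraries, so the shared GC deviation of control replicate 2 was not part of it. The fit was repeated without control replicate 2, without each other library, with library weights, another pseudocount, other filters, 2 rescalings, a GC correction, limma voom on the recovered reads and a replicate block. Responses were compared between lines with an interaction term over all 18 libraries. The correlation of same-numbered libraries' deviations is in the closing section.

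Text names 8 genes fixed for this report, the 12 largest falls and rises past the threshold in both fits without overlap, up to 4 members per list and direction with the smallest p and past the adjusted p in both fits, and 3 per direction whose call depended on control replicate 2. The members, gene lists and rules were chosen with earlier results of these data known. Promoters are from RefSeq (GRCh38.p14), gene positions from GENCODE release 29. Tests treat libraries of a group as replicates, and low genes carry more counting error. Some results are not reported here.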

Additional observations from a re-analysis of the deposited data

Results flagged for a closer look

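The response to knockdown differed between MIA PaCa-2 and another line for 7 of the fixed genes, by the limma interaction test over 18 libraries. The fixed genes were chosen with earlier results known. GDF15 and H2AX had the largest rise and fall in MIA PaCa-2, which favours a difference. Against PANC-1 the response in MIA PaCa-2 minus that in PANC-1, on the log2 scale, was 4.93 for GDF15, -1.23 for H2AX, 0.47 for BRCA1, 0.46 for OFD1 and 0.21 for CCNB1. Against PaTu 8988T the same difference was 4.05 for GDF15, -2.64 for H2AX, -1.46 for PCNA, -1.33 for CHAC1, -0.81 for CCNB1 and 0.49 for OFD1. These stand against a background in which 43.4% and 52.9% of 9083 genes differed. Without control replicate 2 of MIA PaCa-2, the library that moved with GC content, each of these 11 differences kept its direction and passed the test, with BRCA1 against PANC-1 at 0.29, and OFD1 at 0.31 against PANC-1 and 0.34 against PaTu 8988T.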

How the results depend on the processing

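The counts of genes past the 2-fold threshold, 396 lower and 438 higher, were most sensitive to the thresholds and to low values. With the adjusted p alone they were 2338 and 2012, and with a 1.5-fold change 1361 and 1195. Over fits that leave out 1 library they were 376 to 441 and 392 to 460. The counts of lower and higher genes were 265 and 219 with a pseudocount of 1, 271 and 177 with a mean of at least 5 FPKM, and 478 and 772 with no filter on low values, so the share of calls that were higher went from 52.5% to 45.2%, 39.5% and 61.8%. OFD1 kept its direction in all 15 alternatives, from -0.76 to -0.44, with limma adjusted p from 6.22e-06 to 0.0896. It was -0.61 with an adjusted p of 0.0504 with no filter on low values. Without control replicate 1, control replicate 3 or any knockdown library it missed the threshold, and over fits that leave out 1 library it ranged from -0.76 to -0.52. Of 367 named genes, 274 stayed past the adjusted p in every fit that leaves out 1 library and 93 did not in at least 1. LOC105378179 ranged from -0.16 to 1.12 over fits that leave out 1 library, and was at -0.16 and -0.09 without control replicates 1 and 3. With a pseudocount of 1, the difference from PaTu 8988T was 0.24 for OFD1 and -0.094 for BRCA1, and that from PANC-1 was 0.29 for BRCA1 and -0.21 for CHAC1. Without control replicate 2 it was -0.15 for BRCA1 against PaTu 8988T, and -0.20 for PCNA and 0.30 for CHAC1 against PANC-1. The causes of these shifts were not tested.

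The deviations of same-numbered control and knockdown libraries correlated at -0.059, -0.111 and -0.038. Those of control replicates 1, 2 and 3 correlated with GC content at -0.81, 0.87 and -0.81, which can hide a pairing. Whether replicate numbers pair the samples was therefore not settled. With the replicate block 397 genes were lower and 437 higher past the threshold. At the adjusted p alone the counts went from 2338 lower and 2012 higher to 1818 and 1551. The share of higher calls was 49.5% and 49.7% with median-ratio rescaling and quantile normalization and 54.6% with the GC correction. No rescaling moved it by over 10 percentage points or the median of all genes by over 0.1. H4C8 rested on 2 to 28 reads a library, and 3 libraries a group limit every exact test to p = 0.1.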

Other observations

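The metallothioneins, small proteins that bind zinc and copper, were grouped after their values were seen, so their count is a description. All 5 tested members of 10 listed were lower at the adjusted p with all 6 libraries, against 21.7% of all genes tested. Without knockdown replicate 1 or 2 the count was 4. MT1X was at 224, 212 and 209 FPKM in controls and 80.6, 67.0 and 72.7 FPKM in knockdowns (-1.55), and MT2A, the most abundant, was at 947, 1121 and 992 FPKM in controls and 792, 792 and 846 FPKM in knockdowns (-0.33). MT1M, MT1A and MT1E changed by -2.04, -0.79 and -0.69, and the near-identical sequences of these genes make the division of reads between them uncertain.

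The 3 Nogo receptors, membrane proteins that bind myelin inhibitors of axon growth, were grouped in the same way. RTN4R was at 7.40, 12.1 and 6.37 FPKM in controls and 2.35, 2.75 and 3.18 FPKM in knockdowns (-1.57, -1.30 without control replicate 2). RTN4RL1 and RTN4RL2 changed by -1.69 and -1.72, and by -1.51 and -1.40 without control replicate 2. In each the knockdown libraries lay below all controls.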
